A study of Mus musculus with 12 samples.

Results

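*Trp53*, the gene of the tumour suppressor p53, and 9 of its classical target genes were examined in mouse embryonic stem cells (ESCs) that did or did not express the ubiquitin ligase adaptor PRAMEL7. The 10 genes were picked by name as p53 and its targets, with earlier results of these data known. All 10 passed the filter on low values that left 12914 of 48007 genes for testing. RNA had been sequenced from 3 E14 lines with 2 libraries each, all cultured in medium with 15% serum and LIF. Parental ESCs carried no transgene. ESC + H/F-PRAMEL7 WT, the PRAMEL7-WT line, carried HA/FLAG-tagged wild-type PRAMEL7 and ESC + H/F-PRAMEL7 ΔN, the PRAMEL7-ΔN line, carried the same construct without part of the N-terminus, a deletion designed to remove the CUL2-binding part. Both constructs had been placed at *Rosa26* with Cas9 under the constitutive CAG promoter, and cells had been selected with puromycin and cloned, so that line, clone and selection cannot be told apart from PRAMEL7. The labels describe RNA from independent dishes. The p-values measure the spread between such dishes of a line, pooled over the 3 lines, not between clones.

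p53 is a transcription factor that is kept scarce by MDM2, a ubiquitin ligase that is itself a p53 target, so that the pair form a negative feedback loop. After DNA damage or other stress, stabilised p53 binds response elements near genes of cell-cycle arrest, apoptosis, DNA repair and metabolism. Mouse ESCs are known for abundant p53 and for a weak G1 checkpoint, and p53 can favour their differentiation. p53 is regulated mostly as a protein, and protein was not measured in these libraries.

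The RNA was selected for poly(A) and the library kit does not keep the strand. Levels are given as CPM, the count on a gene scaled to the mean total of a library, and were derived from the deposited RPKM values, with 18255648 to 19856712 reads per library. Differences are on the log2(CPM + 1) scale, with limma and Benjamini-Hochberg adjustment over the 12914 genes, and a gene was called at an adjusted p under 0.05. *Pramel7* had 0.258 and 0.217 CPM in parental ESCs, 51.2 and 46.2 in the PRAMEL7-WT line, and 398 and 431 in the PRAMEL7-ΔN line, so the truncated form was more abundant as RNA than the wild type. All 10 ESC markers examined were above 10 CPM in every library. Of 8 fibroblast markers, 5 were under 1 CPM in every library, and all 8 summed to 52.2 to 71.4 CPM in parental ESCs, 25.1 to 26.6 in the PRAMEL7-WT line and 46.8 to 53.7 in the PRAMEL7-ΔN line, lowest in the wild-type line. The ESC markers summed to 5679 to 6143 CPM in parental ESCs, 5437 to 5810 in the PRAMEL7-WT line and 6614 to 6672 in the PRAMEL7-ΔN line, where they were highest. Trophoblast markers summed to 81.0 to 120.4, 84.4 to 90.8 and 66.2 to 69.6 CPM in the same order, lowest in the PRAMEL7-ΔN line. Primitive endoderm markers summed to 247 to 277 CPM over all libraries and were highest in the PRAMEL7-WT line, with 3 of 8 genes of this and of the trophoblast list under 1 CPM everywhere. Only 1 fibroblast, 1 primitive endoderm and 2 trophoblast markers were above 10 CPM in every library, so these sums can rest on few genes. The part of these cells in the results was not tested, and in bulk RNA fewer cells of a type and less RNA per cell cannot be told apart.

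The upstream sequences of *Bax*, *Ccng1* and *Cdkn1a* are shown because they were the members with a complete match to the p53 response element, and because the RNA of *Bax* was called between lines while that of the other two was not. The element is a pair of 10-base units. It was searched as the named p53 consensus, which is the same on both strands, in RefSeq windows from 250 bases before to 50 bases after each gene start (GRCm38.p6). A complete match had at most 13 bases between its units, at most 2 mismatches in all, and the invariant C and G of each unit kept. Each line gives the 250 bases before the start, 5' to 3' on the gene's strand, with the units of every complete match in capitals. Where units adjoin, the capitals run on. *Bax* (chr7:45466899-45467148, minus strand) holds its best match 201 bases before the start, *Ccng1* (chr11:40755287-40755536, minus strand) 195 bases before it, and *Cdkn1a* (chr17:29090729-29090978, plus strand, the more upstream of 2 starts) 73 bases before it.
Bax: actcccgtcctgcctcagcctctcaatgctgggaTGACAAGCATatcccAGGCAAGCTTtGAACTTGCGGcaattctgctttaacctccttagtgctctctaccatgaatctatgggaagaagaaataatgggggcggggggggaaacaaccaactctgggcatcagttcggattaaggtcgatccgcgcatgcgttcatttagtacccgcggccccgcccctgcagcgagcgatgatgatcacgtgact
Ccng1: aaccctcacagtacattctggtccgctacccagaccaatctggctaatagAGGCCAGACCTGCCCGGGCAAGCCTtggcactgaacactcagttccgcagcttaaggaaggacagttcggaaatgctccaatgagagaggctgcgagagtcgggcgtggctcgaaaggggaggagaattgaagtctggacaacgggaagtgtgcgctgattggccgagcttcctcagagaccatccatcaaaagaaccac
Cdkn1a: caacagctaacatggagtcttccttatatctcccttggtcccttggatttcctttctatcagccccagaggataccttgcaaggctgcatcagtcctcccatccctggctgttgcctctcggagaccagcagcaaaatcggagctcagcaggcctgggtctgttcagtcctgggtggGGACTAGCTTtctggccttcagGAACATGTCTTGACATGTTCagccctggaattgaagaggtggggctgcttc

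The *Cdkn1a* window shown held a pair of units without a mismatch, separated by 12 bases, and a second pair that adjoins with 1 mismatch. The window of the other *Cdkn1a* start held no exact unit and no complete match. The *Ccng1* window's best match had 1 mismatch and no bases between its units, and the *Bax* match had 2 mismatches and 1 base between them. Both windows held a further pair, 5 bases apart with 2 mismatches, that shares a unit with the first. *Mdm2* and *Trp53* held an exact 10-base unit (186 and 75 bases before the start) but no complete pair, while *Phlda3* and *Sesn2* held neither in these windows. Windows for *Trp53inp1*, *Zmat3* and *Perp* were not in the table used. Over all 32851 windows, 8.36% held an exact unit and 4.09% a complete match, against 5 and 3 of the 8 member windows. Sites further from the start, including those within introns, were not searched.

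Per kilobase of exon, *Trp53* had the highest median level of the 10 genes, 186 CPM per kb, above 98.2% of all tested genes. *Bax* followed with 105, *Sesn2* with 62.4, *Phlda3* with 45.4, *Ccng1* with 42.1 and *Cdkn1a* with 24.7 CPM per kb. *Zmat3*, *Perp*, *Mdm2* and *Trp53inp1* had 13.8, 13.7, 13.3 and 10.7 CPM per kb. The lower order was not firm between neighbours, since the line means of *Perp* ran from 8.06 to 21.7 CPM per kb and so spanned the medians of the other 3. *Phlda3* and *Ccng1* were not separated either, as the line means of *Phlda3* ran from 29.3 to 52.8 CPM per kb.

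**Figure D1:**
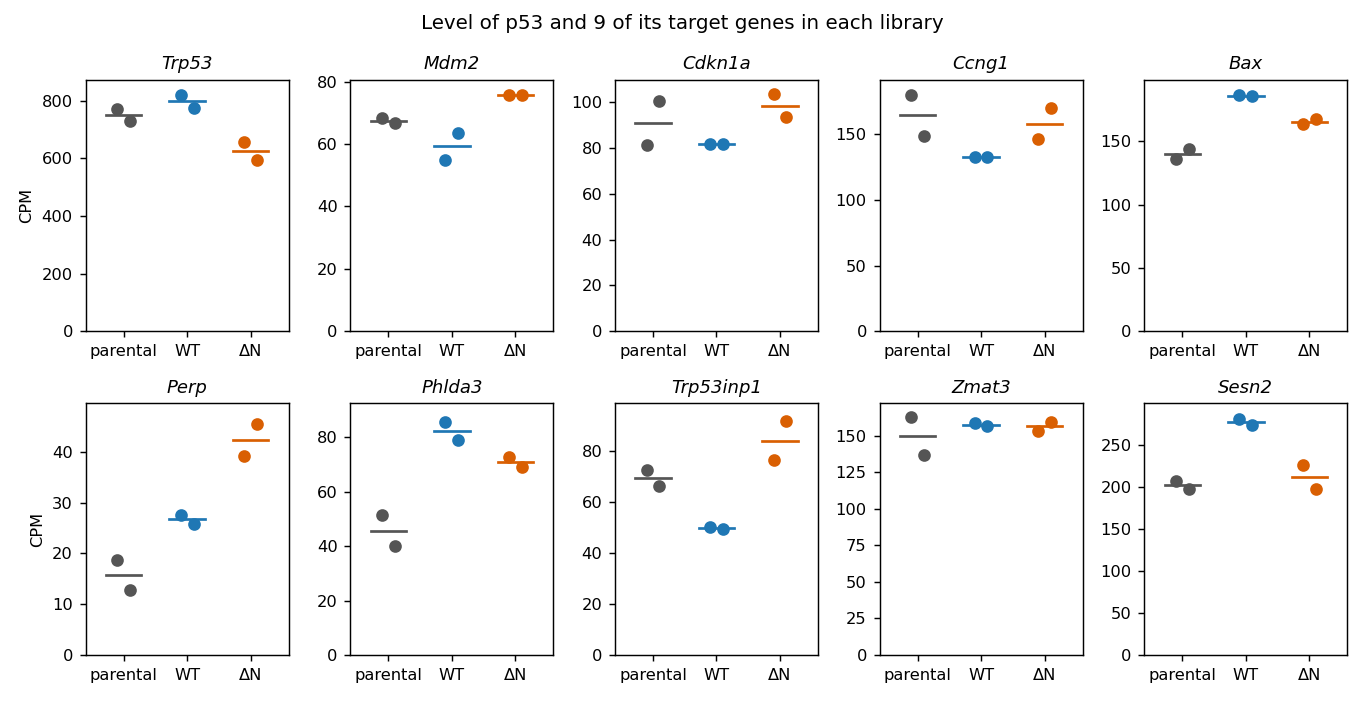
Level in CPM (linear axis from 0) of *Trp53* and 9 target genes in each library of parental ESCs, PRAMEL7-WT (WT) and PRAMEL7-ΔN (ΔN). Points are libraries and bars the mean of 2, with *Perp* and *Phlda3* above both parental libraries in both derived lines and *Trp53inp1* lowest in WT.

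Wild-type PRAMEL7 was compared with parental ESCs to ask what its expression changes. Of the 10 genes, 4 rose (*Phlda3*, *Perp*, *Sesn2* and *Bax*) and 1 fell (*Trp53inp1*), while *Trp53* and *Mdm2* were not called. Among all genes tested, 25% were called in this comparison, 8.71% higher and 16.3% lower in the PRAMEL7-WT line. The median log2 fold change of the members was 0.08, against -0.08 for all genes. Between the lines, 8 of 10 members did not overlap, against 64.2% of all genes.

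The PRAMEL7-ΔN line was compared with the same parental libraries to ask what remains without the CUL2-binding part. Of the 10 genes, *Perp* and *Phlda3* were called, both higher, a share of members near that of all genes, of which 19.9% were called, 6.25% higher and 13.6% lower. The members' median was 0.14 and that of all genes -0.06, and 6 of 10 members did not overlap, against 57.0% of all genes. The direct comparison of the PRAMEL7-WT line with the PRAMEL7-ΔN line called 5 members, with *Trp53* and *Sesn2* higher and *Trp53inp1*, *Perp* and *Mdm2* lower in the wild-type line. Its background was 20.4% of all genes, 10.9% higher and 9.44% lower, the members' median was -0.12 against -0.02, and 9 of 10 did not overlap, against 68.8% of all genes. Over the 3 comparisons, 7 members were called at least once, *Perp* in all 3, and *Cdkn1a*, *Ccng1* and *Zmat3* in none. The 3 comparisons share libraries, so their results are not independent.

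**Figure D2:**
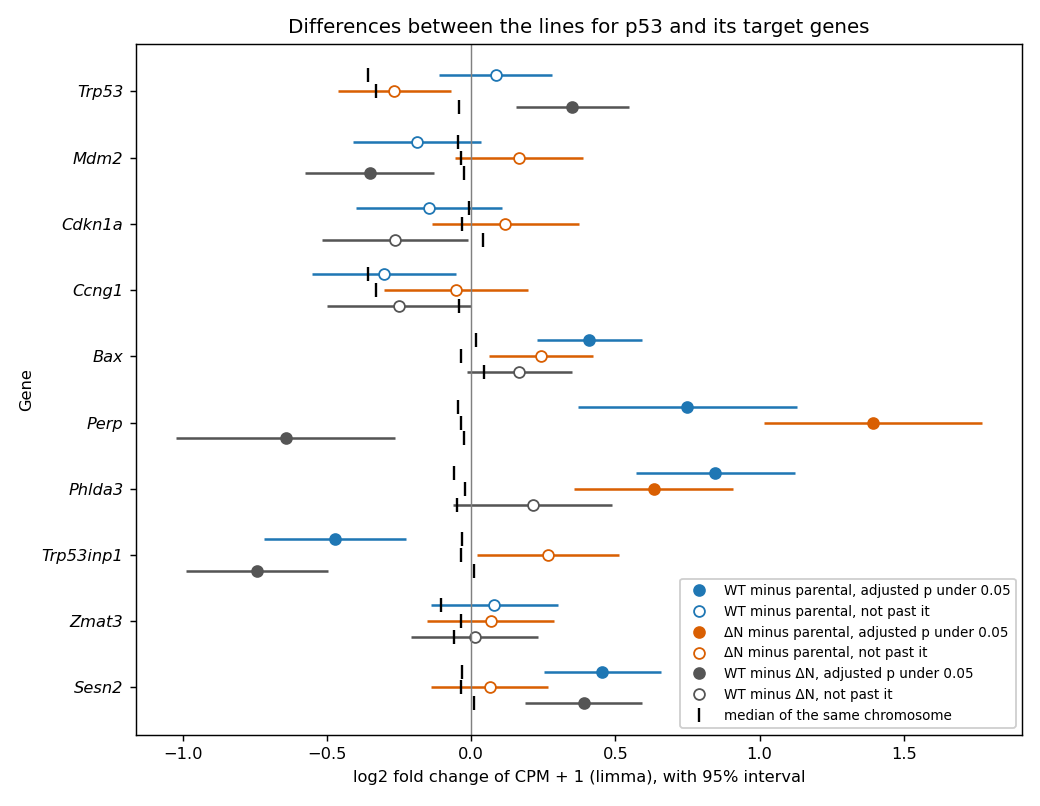
Log2 fold change of CPM + 1 for each gene in the 3 comparisons, with 95% intervals from limma (lines) and filled points where the adjusted p is under 0.05. Black ticks mark the median of all tested genes on the same chromosome, at -0.36 and -0.33 for *Trp53* and *Ccng1* against parental ESCs. *Perp* is called in all 3 comparisons and *Trp53inp1* has a filled point below 0 in WT and an open point above 0 in ΔN against parental ESCs.

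*Trp53* lies on the plus strand of chromosome 11 (GRCm38, chr11:69580359-69591873). It had 773 and 731 CPM in parental ESCs, 820.4 and 775 in the PRAMEL7-WT line, and 656 and 595 in the PRAMEL7-ΔN line. The libraries of the PRAMEL7-WT line were the highest and those of the PRAMEL7-ΔN line the lowest, with no overlap between any 2 lines. Against parental ESCs, the log2 fold change was 0.09 in the PRAMEL7-WT line (95% interval -0.11 to 0.28, limma adjusted p = 0.499). In the PRAMEL7-ΔN line it was -0.27 (95% interval -0.46 to -0.07, limma adjusted p = 0.0598). That value depended on scaling, and with quantile normalization it was -0.31 and called (limma adjusted p = 0.0305). The difference between the derived lines was called, with *Trp53* higher in the wild-type line by 0.35 (SE 0.09, limma adjusted p = 0.0210), a ratio of means of 1.28.

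Chromosome 11 as a whole was lower in both derived lines than in parental ESCs. Of its 1102 tested genes, 45.8% were called lower in the PRAMEL7-WT line, with a median log2 fold change of -0.36, and 39.3% in the PRAMEL7-ΔN line, with a median of -0.33. *Trp53* stood 0.44 above that median in the PRAMEL7-WT line, higher than 88.9% of the chromosome's genes, and 0.06 above it in the PRAMEL7-ΔN line, higher than 60.6%. Between the derived lines the chromosome's median was only -0.04, so the called difference of *Trp53* was 0.39 above it. DNA copy number was not analysed here, and its part in these values was not tested.

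**Figure D3:**
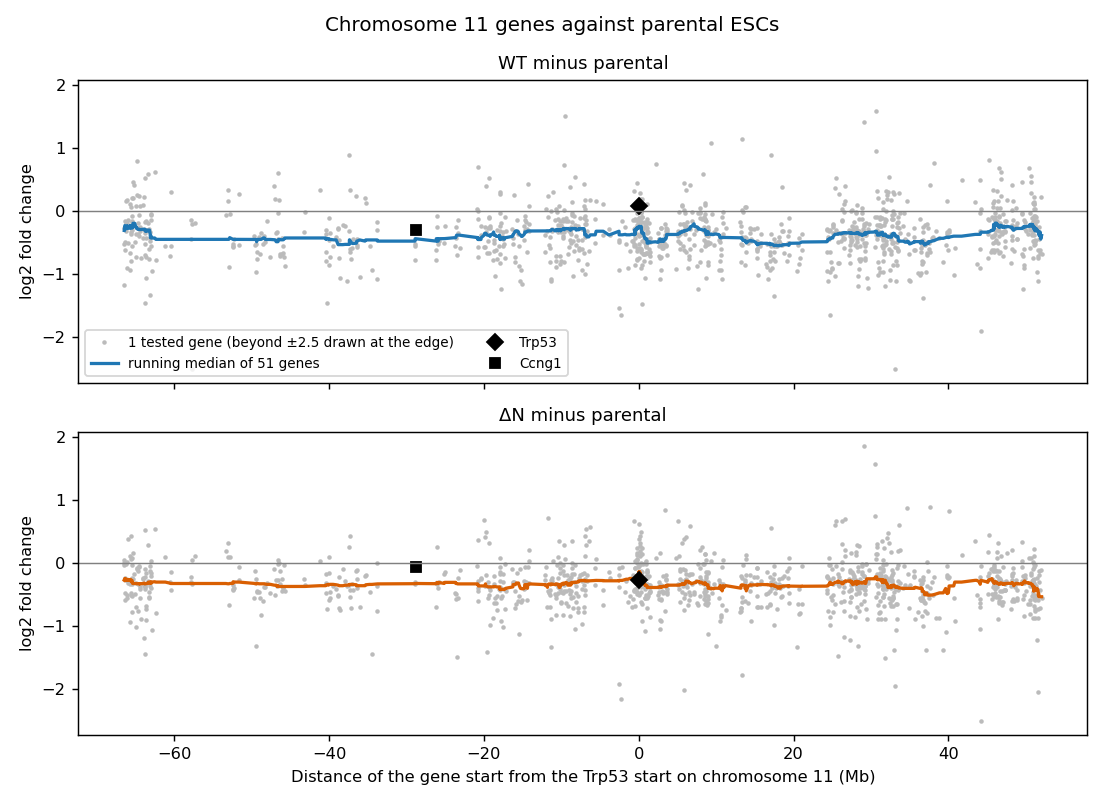
Log2 fold change against parental ESCs of each tested gene on chromosome 11 (grey points), by distance in Mb of its start from the *Trp53* start, for WT (top) and ΔN (bottom). The running median of 51 genes (line) stays below 0 along the whole chromosome in both. *Trp53* (diamond) lies above that line in WT, at 0.09, and close to it in ΔN, at -0.27, while *Ccng1* (square) lies at -0.30 and -0.05.

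The 10 other tested genes with a start within 100 kb of *Trp53* were examined for comparison. Their median log2 fold change was -0.17 in the PRAMEL7-WT line against parental ESCs, with *Dnah2*, *Fxr2* and *Atp1b2* called lower, against 45.8% of the chromosome's genes. The median was likewise -0.17 in the PRAMEL7-ΔN line against parental ESCs, above the -0.27 of *Trp53*. There *Efnb3* and *Cd68* were called higher and no neighbour was called lower, against 2.45% and 39.3% of the chromosome's genes. Between the derived lines, where *Trp53* was higher in the PRAMEL7-WT line, the median of these neighbours was -0.11. Of them, 3 (*Dnah2*, *Efnb3* and *Atp1b2*) were called lower, against 9.26% of the chromosome's genes. *Wrap53*, which starts 0.104 kb away on the other strand and shares no annotated exon base with *Trp53*, had a log2 fold change of 0.09 there (limma adjusted p = 0.508). The 5 genes whose log2 values over the 6 libraries followed *Trp53* most closely, among 8559 genes of at least 10 CPM, lay on other chromosomes. They were *Atg13* (Pearson's r of 0.988), *Mavs* (0.988), *Zfp41* (0.983), *Ndufa10* (0.983) and *Tfe3* (0.982). With 6 points from 3 lines, such values are a description of these libraries only.

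*Mdm2*, the ligase that ubiquitinates p53 (chr10:117688875-117710758, minus strand), showed the reverse order of the lines to *Trp53*. It had 68.2 and 66.6 CPM in parental ESCs, 54.9 and 63.6 in the PRAMEL7-WT line, and 75.7 and 75.6 in the PRAMEL7-ΔN line. The libraries of the 3 lines did not overlap, with the wild-type line lowest and the deletion line highest. The derived lines differed by -0.35 (SE 0.10, limma adjusted p = 0.0343), while the differences from parental ESCs, -0.19 and 0.17, were not called (limma adjusted p = 0.190 and 0.285).

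*Cdkn1a* encodes p21, the cyclin-dependent kinase inhibitor through which p53 arrests the cell cycle (chr17:29090976-29100727, plus strand). It had 81.4 and 100.7 CPM in parental ESCs, 81.6 and 81.8 in the PRAMEL7-WT line and 103.5 and 93.4 in the PRAMEL7-ΔN line. The parental libraries spanned most of this range and overlapped both derived lines. Its log2 fold changes against parental ESCs were -0.15 and 0.12 (limma adjusted p = 0.367 and 0.511). Between the derived lines, which did not overlap, it was -0.26 (95% interval -0.52 to -0.01, limma adjusted p = 0.129). Of its exon bases, 7.68% are shared with an antisense transcript, whose reads cannot be told apart without strand.

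*Ccng1*, the gene of cyclin G1, a p53-induced regulator of MDM2 activity, lies on chromosome 11 (chr11:40748552-40755311, minus strand). It had 180 and 149 CPM in parental ESCs, 132 and 133 in the PRAMEL7-WT line, and 147 and 169.6 in the PRAMEL7-ΔN line. Both libraries of the PRAMEL7-WT line were the lowest, and those of the PRAMEL7-ΔN line overlapped the parental ones. The log2 fold change in the PRAMEL7-WT line was -0.30 (limma adjusted p = 0.0726), 0.06 above the chromosome's median. In the PRAMEL7-ΔN line it was -0.05 (limma adjusted p = 0.779), 0.28 above that median.

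*Bax*, a pore-forming effector of mitochondrial apoptosis (chr7:45461697-45466898, minus strand), had 136 and 144 CPM in parental ESCs. It had 187 and 185 CPM in the PRAMEL7-WT line and 164 and 167 in the PRAMEL7-ΔN line. No libraries of different lines overlapped, and parental ESCs were lowest. *Bax* rose in the PRAMEL7-WT line by 0.41 (SE 0.08, limma adjusted p = 0.00753), a ratio of means of 1.33. Its value in the PRAMEL7-ΔN line, 0.24, missed the threshold (95% interval 0.06 to 0.42, limma adjusted p = 0.0627). The derived lines were not shown to differ, at 0.17 (95% interval -0.01 to 0.35, limma adjusted p = 0.170), and the call in the wild-type line alone does not show a difference between them. Of the exon bases of *Bax*, 12.2% lie also in a same-strand readthrough gene that was listed at 0 in all libraries.

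*Perp*, a tetraspan membrane protein of desmosomes and p53-dependent apoptosis (chr10:18845020-18857073, plus strand), differed more from parental ESCs in the deletion line than any other member. It had 18.8 and 12.7 CPM in parental ESCs, 27.5 and 25.8 in the PRAMEL7-WT line, and 39.1 and 45.5 in the PRAMEL7-ΔN line. The lines formed 3 separate steps, although the parental libraries differed from each other by 0.53 on the log2 scale, the largest gap between libraries of a line among the members. The log2 fold change was 0.75 in the PRAMEL7-WT line (SE 0.17, limma adjusted p = 0.0128) and 1.39 in the PRAMEL7-ΔN line (SE 0.17, limma adjusted p = 0.000774). The ratio of means to parental ESCs was 1.70 and 2.69. The difference between the derived lines was -0.64 (SE 0.17, limma adjusted p = 0.0263).

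*Phlda3*, a pleckstrin homology protein that restrains AKT (chr1:135766119-135769136, plus strand), rose in both derived lines. It had 51.3 and 40.03 CPM in parental ESCs, 85.8 and 78.9 in the PRAMEL7-WT line, and 72.8 and 68.9 in the PRAMEL7-ΔN line. All 4 libraries of the derived lines were above both parental ones. The log2 fold change was 0.85 in the PRAMEL7-WT line (SE 0.12, limma adjusted p = 0.00222) and 0.63 in the PRAMEL7-ΔN line (SE 0.12, limma adjusted p = 0.00702). The derived lines differed by 0.21, which was not called (95% interval -0.06 to 0.49, limma adjusted p = 0.247).

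*Trp53inp1*, a nuclear protein that promotes p53 phosphorylation and autophagy (chr4:11156431-11174379, plus strand), differed more between the derived lines than any other member. It had 72.5 and 66.2 CPM in parental ESCs, 50.1 and 49.1 in the PRAMEL7-WT line, and 76.2 and 91.6 in the PRAMEL7-ΔN line. Parental ESCs lay between the derived lines, with no overlap. *Trp53inp1* fell in the PRAMEL7-WT line by 0.47 on the log2 scale (SE 0.11, limma adjusted p = 0.0143), whereas its value in the PRAMEL7-ΔN line was 0.27 (limma adjusted p = 0.121). The derived lines differed by -0.74 (SE 0.11, limma adjusted p = 0.00188), with 1.69 times as much RNA in the PRAMEL7-ΔN line.

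*Zmat3*, a zinc finger RNA-binding protein of the p53 response (chr3:32334792-32366014, minus strand), was not called in any comparison. It had 163 and 137 CPM in parental ESCs, 159 and 156 in the PRAMEL7-WT line, and 153 and 159.7 in the PRAMEL7-ΔN line. The parental libraries enclosed the other 4. The log2 fold changes were 0.08, 0.07 and 0.01 in the 3 comparisons. Their 95% intervals were -0.14 to 0.30, -0.15 to 0.29 and -0.21 to 0.23.

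*Sesn2*, the gene of sestrin 2, a stress-induced inhibitor of mTORC1 (chr4:132492032-132510501, minus strand), was highest in the wild-type line. It had 208 and 197 CPM in parental ESCs, 281 and 274 in the PRAMEL7-WT line, and 226 and 198 in the PRAMEL7-ΔN line. The deletion line overlapped parental ESCs, and the wild-type line lay above both. *Sesn2* rose by 0.45 over parental ESCs (SE 0.09, limma adjusted p = 0.00779) and by 0.39 over the PRAMEL7-ΔN line (SE 0.09, limma adjusted p = 0.0159). Its value in the PRAMEL7-ΔN line against parental ESCs was 0.06 (limma adjusted p = 0.667).

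These calls rest on 2 libraries per line. Without replicate 1 of the PRAMEL7-WT line, or without its replicate 2, *Phlda3* was the only member called against parental ESCs and *Trp53inp1* the only one against the PRAMEL7-ΔN line. Without replicate 1 of the PRAMEL7-ΔN line, *Phlda3* was not called in that line (limma adjusted p = 0.0745) and *Perp* was, and *Trp53inp1* and *Sesn2* were the members called between the derived lines. Without its replicate 2, *Trp53inp1* alone was called between them. *Perp* in the deletion line, *Phlda3* in the wild-type line and *Trp53inp1* between the derived lines kept their calls whichever library was left out. Without parental replicate 1 or parental replicate 2, 7 members were called between the derived lines, with *Ccng1* and *Cdkn1a* added. Without the filter on low values, or without a mean-variance trend in the fit, *Trp53inp1* was the only member called between the derived lines.

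A wider set of 108 genes of the p53 network, in 7 lists, was examined beside the members, and 99 of these genes were tested. In the PRAMEL7-WT line against parental ESCs, 15 rose and 17 fell, 32.3% of those tested against 25% of all genes. These 17 included *Dram1*, which passed the filter only through parental ESCs, where it was high. In the PRAMEL7-ΔN line, 12 rose and 6 fell, 18.2% against 19.9%. Between the derived lines 14 were higher and 14 lower in the wild-type line, 28.3% against 20.4%. The lists' medians were 0.01, 0.07 and -0.02 in the 3 comparisons, against -0.08, -0.06 and -0.02 for all genes. The split depends on scaling. With the libraries scaled by the median of their ratios, 23 rose and 13 fell in the PRAMEL7-WT line, and 15 rose and 3 fell in the PRAMEL7-ΔN line. For all genes that scaling gave 1752 higher and 1451 lower in the PRAMEL7-WT line instead of 1125 and 2109, and 1166 and 1336 in the PRAMEL7-ΔN line instead of 807 and 1759. The calls of members against parental ESCs had the same directions under it, with *Bax* added in the PRAMEL7-ΔN line. With quantile normalization, *Trp53* was instead added in the PRAMEL7-ΔN line, called lower.

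**Figure D4:**
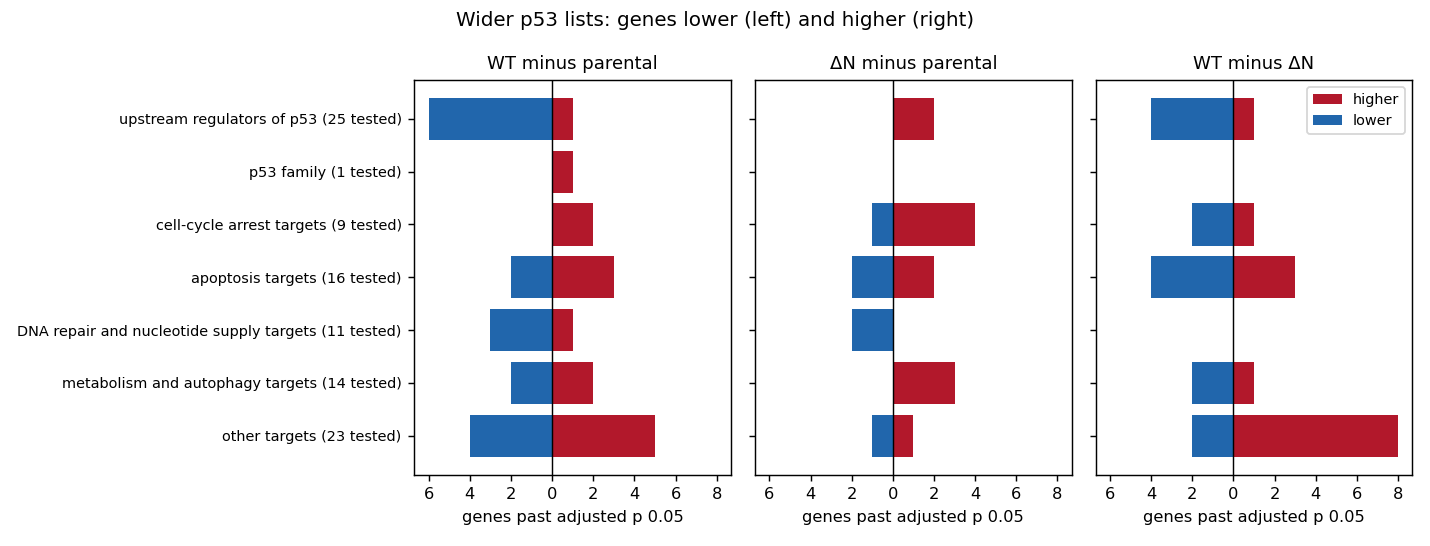
Number of genes of 7 wider p53 lists past an adjusted p of 0.05, lower to the left and higher to the right of 0, in each of the 3 comparisons, with the number tested per list. Of the 25 upstream regulators 6 are lower and 1 higher in WT against parental ESCs, 28% against 25% of all genes. Of the 9 cell-cycle arrest targets 4 are higher and 1 lower in ΔN, 55.6% against 19.9%. No test was made of these counts, which include *Dram1*, a gene that passed the filter only through parental ESCs.

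Of 25 upstream regulators of p53, 1 rose and 6 fell in the PRAMEL7-WT line, together 28% of them against 25% of all genes. In that line 8.71% of all genes rose and 16.3% fell. The riser was *Cdkn2a*, the locus of p16INK4a and of ARF, which blocks MDM2. It had 6.55 and 8.51 CPM in parental ESCs, 12.3 and 15.4 in the PRAMEL7-WT line, and 6.22 and 6.33 in the PRAMEL7-ΔN line. Its log2 fold change was 0.80 against parental ESCs (limma adjusted p = 0.00985) and 1.02 against the deletion line (limma adjusted p = 0.00332), and the values do not separate its transcripts. The DNA damage kinase genes *Atm*, with -0.66, and *Atr*, with -0.63, were among the 6 that fell, and both were singled out after their values were seen. In the PRAMEL7-ΔN line, 2 regulators rose, 8% of the 25 against 19.9% of all genes called. They were *Hipk2* and *Trim24*, a ubiquitin ligase of p53, the latter named after its values were seen. *Hipk2*, a kinase of p53, had 58.8 and 64.3 CPM in parental ESCs, 43.4 and 41.0 in the PRAMEL7-WT line, and 83.1 and 74.7 in the PRAMEL7-ΔN line, and differed by -0.89 between the derived lines (limma adjusted p = 0.000514). *Trp73*, a p53 paralogue at 0.922 to 3.52 CPM, rose in the PRAMEL7-WT line by 0.81 (limma adjusted p = 0.0308), and *Trp63* was too low to test.

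Of 9 cell-cycle arrest targets, 2 rose in the PRAMEL7-WT line, a share of 22.2% against 25% of all genes. Of the same 9 targets, 4 rose and 1 fell in the PRAMEL7-ΔN line, against 6.25% and 13.6% of all genes. *Sfn*, the gene of 14-3-3 sigma, rose in both lines, from 42.2 and 48.8 CPM in parental ESCs to 76.0 and 90.1 in the PRAMEL7-WT line and 96.1 and 88.4 in the PRAMEL7-ΔN line. Its log2 fold changes were 0.85 (limma adjusted p = 0.00169) and 1.01 (limma adjusted p = 0.000611). *Btg2*, an antiproliferative gene, had 64.4 to 66.1 CPM in the 4 libraries of parental ESCs and the PRAMEL7-WT line, and 125.9 and 124.8 in the PRAMEL7-ΔN line. It rose in the deletion line by 0.93 (limma adjusted p = 0.000168) and differed by -0.95 between the wild-type and the deletion line (limma adjusted p = 0.000137). *Gadd45a*, a growth arrest gene, rose in the PRAMEL7-ΔN line by 0.86 (limma adjusted p = 0.000933).

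Of 16 apoptosis targets, 3 rose and 2 fell in the PRAMEL7-WT line, 31.25% of them against 25% of all genes. In the PRAMEL7-ΔN line 2 rose and 2 fell, 25% against 19.9%. Between the derived lines 3 were called higher and 4 lower in the wild-type line, 43.75% against 20.4%. *Pmaip1*, which encodes the BH3-only protein NOXA, had 8.15 and 10.3 CPM in parental ESCs, 4.87 and 3.79 in the PRAMEL7-WT line, and 10.7 and 12.6 in the PRAMEL7-ΔN line. It fell by 0.94 in the wild-type line (limma adjusted p = 0.00598), opposite to *Bax*, and differed by -1.25 between the derived lines (limma adjusted p = 0.00141). *Bid*, a BH3-only protein that activates BAX, had 94.1 and 78.9 CPM in parental ESCs, 81.4 and 79.6 in the PRAMEL7-WT line, and 159.7 and 150.4 in the PRAMEL7-ΔN line. It rose in the deletion line by 0.84 (limma adjusted p = 0.000779). *Pycard*, an inflammasome adaptor, was higher by 0.79 in the wild-type than in the deletion line (limma adjusted p = 0.00463).

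*Bid*, *Gadd45a*, *Hipk2*, *Trim24* and *Xpc* lie on chromosome 6, whose tested genes had a median log2 fold change of -0.26 in the PRAMEL7-WT line and 0.25 in the PRAMEL7-ΔN line, and -0.39 between the derived lines. Of the 6 tested network genes on this chromosome, 5 rose and 1 fell in the PRAMEL7-ΔN line, where 30.7% of the chromosome's genes were called higher and 17.1% lower. Between the derived lines 5 of the 6 were called lower in the wild-type line, against 47.3% of the chromosome's genes. On chromosome 11, 4 of 8 network genes fell in the PRAMEL7-WT line, against 45.8% of the chromosome's genes. In the PRAMEL7-ΔN line 1 of 8 fell, against 39.3%. The part of these chromosome-wide shifts in the single genes was not tested.

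Of 11 DNA repair and nucleotide supply targets, 1 rose and 3 fell in the PRAMEL7-WT line, 36.4% of them against 25% of all genes. In the PRAMEL7-ΔN line 2 fell, 18.2% against 19.9%. Between the derived lines 0 of 11 were called, against 20.4% of all genes. *Xpc*, the damage sensor of nucleotide excision repair, had 30.5 and 34.8 CPM in parental ESCs, 19.1 and 18.6 in the PRAMEL7-WT line, and 18.5 and 16.4 in the PRAMEL7-ΔN line. It fell by 0.76 (limma adjusted p = 0.00349) and 0.87 (limma adjusted p = 0.00172) and was low in all 4 libraries of the derived lines, against the rise of its chromosome in the deletion line. Of 14 metabolism and autophagy targets, 2 rose and 2 fell in the PRAMEL7-WT line, 28.6% of them against 25% of all genes. In the PRAMEL7-ΔN line 3 rose, 21.4% against 19.9%. Between the derived lines 1 was called higher and 2 lower in the wild-type line, 21.4% against 20.4%. *Dram1*, a lysosomal autophagy gene at 0.330 to 1.29 CPM, was among the genes that fell in the PRAMEL7-WT line. It was above 1 CPM only in parental ESCs (1.29 and 1.25 CPM) and so passed the filter only through the group where it was high. Its log2 fold change of -0.71, on a CPM + 1 scale that understates changes at such levels, is therefore not taken as support for a fall. The counts given for this list and for the wider set still include it.

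Of 23 other targets, 5 rose and 4 fell in the PRAMEL7-WT line, 39.1% of them against 25% of all genes. In the PRAMEL7-ΔN line 1 rose and 1 fell, 8.70% against 19.9%. Between the derived lines 8 were called higher and 2 lower in the wild-type line, 43.5% against 20.4%. These shares were not tested. *Gdf15*, a secreted stress cytokine, had 4.28 and 9.60 CPM in parental ESCs, 11.3 and 15.4 in the PRAMEL7-WT line, and 6.83 and 6.07 in the PRAMEL7-ΔN line. It was higher in the wild-type line by 0.92 than in parental ESCs (limma adjusted p = 0.0414) and by 0.93 than in the deletion line (limma adjusted p = 0.0461), with the 2 parental libraries far apart. *Kitl*, the ligand of the KIT receptor, was at 0.202 to 2.37 CPM in all libraries and fell by 0.98 in the PRAMEL7-WT line (limma adjusted p = 0.0189). Its values in that line, 0.202 and 0.936 CPM, were both under 1 CPM and far apart, against 2.37 and 1.68 in parental ESCs.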

How the data were processed

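RNA-seq libraries of 3 E14 ESC lines were used, 2 per line. ChIP-seq samples were not analysed here. The authors removed ribosomal reads, trimmed, mapped to mm10 (GRCm38) with STAR, and counted exon reads in an in-house pipeline. The submitters' processing notes also name Bowtie2 2.3.4.3 and Subread 1.4.6-p4. The authors deposited RPKM values per gene and library. They also deposited comparison tables with their own DESeq2 results, which were not used.

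Of 50978 genes in the table, 48007 were kept. Names that were repeated or had become dates (176), were absent from GENCODE vM21 (2723) or matched it more than once (72) were dropped. Multiplied by the gene span, 98.1 to 98.4% of the values up to 20 reads lay within 0.1 of whole reads, against 40.1 to 41.9% with exon length. RPKM was therefore multiplied by the span and by 1 constant for all libraries, which gives CPM and keeps the authors' scaling (totals of 990592 to 1008460). Reads per member and library ranged from 234 (*Perp*) to 16206 (*Trp53*). The filter asked for more than 1 CPM in 2 or more libraries. Log2(CPM + 1) was analysed with limma 3.58.1 (R 4.3.3), with a mean-variance trend, all 6 libraries in 1 fit and Benjamini-Hochberg adjustment. The 3 lines thus shared 1 estimate of the spread, although their spreads were unequal. Over 8560 genes, the median absolute log2 difference between the 2 libraries of a line was 0.168 in parental ESCs. It was 0.081 in the PRAMEL7-WT line and 0.103 in the PRAMEL7-ΔN line. The fit was also run on simulated data, with the same spread in every library and larger changes than most members showed. That simulation therefore says little about the calls given here. Figures were drawn with matplotlib 3.10.9 and tables made with pandas 2.3.3 in python 3.11.15.

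The members and the wider lists were chosen with earlier results of these data known. Named were all members and, of the wider lists, at most 4 called genes per direction and comparison with an absolute log2 fold change above 0.58, by size. The genes within 100 kb of *Trp53* and the 5 most like it were named as well. One gene that this rule would name is not reported here. *Cop1* and *Dglucy* had no match in the table. *Trp63*, *Rprm*, *Fas*, *Sco2*, *Spata18*, *Trp53cor1* and *Thbs1* did not pass the filter. Alternatives were other pseudocounts, filters, scalings, variance models and limits, RPKM without conversion, only the compared lines, voom on whole reads, the median of the same chromosome, the replicate number as a block, and leaving out each library.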

Additional observations from a re-analysis of the deposited data

Results flagged for a closer look

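For 5 of the 10 genes, the derived lines differed when they were compared directly in the limma fit, against 20.4% of all genes. The log2 fold change of the PRAMEL7-WT line over the PRAMEL7-ΔN line was 0.35 for *Trp53* (limma adjusted p = 0.0210), -0.35 for *Mdm2* (limma adjusted p = 0.0343) and -0.74 for *Trp53inp1* (limma adjusted p = 0.00188). It was 0.39 for *Sesn2* (limma adjusted p = 0.0159) and -0.64 for *Perp* (limma adjusted p = 0.0263). Under the 17 alternatives that gave a test, *Trp53inp1* kept its call in 17, *Sesn2* in 12, *Perp* in 11, *Trp53* in 10 and *Mdm2* in 9. *Pramel7* itself had a mean of 48.7 CPM in the PRAMEL7-WT line and 414 in the PRAMEL7-ΔN line, and the sequence of the construct, its level, the clone and the selection cannot be told apart in these differences.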

How the results depend on the processing

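Replicate numbers did not pair the libraries, since same-numbered libraries deviated together with correlations of 0.30 (parental and PRAMEL7-WT), -0.34 (parental and PRAMEL7-ΔN) and -0.13 (the derived lines). With the replicate block, 5, 2 and 4 members were called in the PRAMEL7-WT line against parental ESCs, in the PRAMEL7-ΔN line against parental ESCs and between the derived lines, against 5, 2 and 5 without it, and *Mdm2* was lost between the derived lines (limma adjusted p = 0.0557). The values below keep this order of comparisons and give members, network genes and all genes in turn. With 1 library left out, which leaves a lone library assumed to vary like the others and fewer samples, counts ranged from 1 to 6, 6 to 44 and 706 to 4374, then from 1 to 4, 8 to 38 and 838 to 4282, and then from 1 to 7, 7 to 41 and 712 to 4648. The lowest counts came without a library of the PRAMEL7-WT line or without replicate 1 of the PRAMEL7-ΔN line, and the highest without a parental library. A fold limit of 0.58 on the log2 scale, which can only remove genes, left 2, 15 and 1612, then 8 network and 1456 genes, then 2, 12 and 1465, and with an unadjusted p 2, 15 and 1763, then 9 network and 1590 genes, then 2, 13 and 1605. Without a filter, with more genes tested, 17 network and 1896 genes were called, then 1695 genes, then 1, 17 and 1427. For the other changes of counts the cause was not tested. RPKM without conversion gave 3, 20 and 2106, then 1678 genes, then 3, 18 and 1546. Only the compared lines in the fit gave 1700 genes in the PRAMEL7-ΔN line, and 7 members, 41 network genes and 4647 genes between the derived lines. Without a mean-variance trend 1 member was called there. Of the values of single members under the alternatives, 38 lost and 13 gained a call and 11 changed sign, each a value that had not been called. Against parental ESCs these were *Trp53* in the PRAMEL7-WT line (-0.0067 with quantile normalization) and *Ccng1* in the PRAMEL7-ΔN line (0.030 with median-ratio scaling), and *Zmat3* between the derived lines (-0.0022 with voom). With a library left out, *Cdkn1a* ranged from -0.30 to 0.0059 and *Zmat3* from -0.044 to 0.20 in the PRAMEL7-WT line. In the PRAMEL7-ΔN line *Cdkn1a* ranged from -0.034 to 0.27, *Ccng1* from -0.19 to 0.082, *Sesn2* from -0.031 to 0.16 and *Zmat3* from -0.057 to 0.19, and between the derived lines *Zmat3* ranged from -0.018 to 0.042. With 2 libraries per line, small differences were not detectable.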
